A study of Mus musculus with 6 samples.

Results

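Integrin genes were followed in NMuMG cells, a mouse mammary epithelial cell line that takes on a mesenchymal form under TGF-beta. The 10 subunits described are Itga1, Itga2, Itga3, Itga5, Itga6, Itgav, Itgb1, Itgb4, Itgb5 and Itgb6. They were taken by gene symbol from a table of 14526 genes, which holds 21 integrin subunits in all, and every member lay above the filter on low values. RNA was sequenced from 6 libraries, each at day 4 of TGF-beta, with 3 from cells given small interfering RNA against Mnt (siMnt) and 3 from cells given a non-targeting control (siNTC). The siRNA and TGF-beta were given together 16 h after plating and renewed on day 2, so all 6 libraries carry both, and no untreated cells enter these comparisons. Mnt, which encodes a repressor that pairs with Max, was at 1316, 896 and 1596 in siNTC replicates 1, 2 and 3 and at 613, 557 and 749 in siMnt. Every siMnt library lay below every control, and the siMnt mean was 50.4% of the siNTC mean (adjusted p = 0.0546 by limma, or 0.00442 in a fit blocked on the replicate number). In RNA from whole cultures, fewer cells that express a gene and less of its RNA per cell cannot be told apart.

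Integrins are receptors of the cell surface made of 1 alpha and 1 beta chain, which bind matrix proteins outside the cell and couple to actin or, in the case of Itgb4, to keratin filaments inside it. The alpha chain largely sets which ligand is bound. Itga1 and Itga2 with Itgb1 bind collagens, Itga3 and Itga6 bind laminins, and Itga5 with Itgb1 binds fibronectin. Itgav pairs with Itgb5, Itgb6 and Itgb1 to bind ligands with the RGD motif, and Itgav with Itgb6 is known to activate latent TGF-beta. Epithelial cells rely on the laminin receptors for anchorage to the basement membrane, and a shift towards fibronectin receptors is a textbook feature of epithelial to mesenchymal transition.

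Values are normalised read counts, that is, read counts divided by a size factor per library. Group values are means ± SD (n = 3 libraries in each group). A log2 fold change is the fitted siMnt level less the siNTC level of log2(value + 1), given ± its standard error. Library totals ran from 22323050 to 42193292 reads, and the lowest value of any member in any library was 359, for Itga1. The keratin genes Krt8 and Krt18 were high in all 6 libraries, at 30725 to 41841 and 43433 to 75987. Other epithelial genes, Esrp1 and Grhl2, were low, at 5.97 to 26.5 and 12.3 to 53.3. Across genes, the log2 values of siNTC replicate 3 correlated most with those of siMnt replicate 3, at 0.987. They correlated at 0.979 and 0.963 with siNTC replicates 1 and 2 and at 0.974 and 0.972 with siMnt replicates 1 and 2.

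In siMnt cells the subunits split. Itga1, Itgb6 and Itga6 were higher, with siMnt means at 174%, 173% and 157% of the siNTC mean. Itga2, Itga5 and Itgb1 were lower, at 57.5%, 60.1% and 61.5%. Itga3, Itgav and Itgb5 were at 93.2%, 109% and 98.6%, and Itgb4, at 136%, varied most among the controls. By limma with no block 0 of the 10 members passed at an adjusted p under 0.05, a threshold passed by 3.93% of the 12568 tested genes (2.56% higher and 1.37% lower). At an unadjusted p under 0.05 there were 6 members (23.4% of tested genes), and at an adjusted p under 0.1 there were 4, Itga1, Itga2, Itga6 and Itgb6 (10.6%). In the fit blocked on the replicate number 6 members passed at an adjusted p under 0.05 (15.9% of tested genes), 3 of them higher (9.33%) and 3 lower (6.56%). These were the 6 just described as higher or lower, and the same 6 had groups that did not overlap, which held for 31.5% of tested genes. Of the count tests on recovered reads, DESeq2 called these 6 members (11.6% of tested genes) and edgeR called 0 (3.54%). The block with GC content and transcript length corrected for also called these 6 (18.8%).

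Over the 10 members the median log2 fold change was 0.06, against -0.01 over all tested genes. The median size of the change, without its sign, was 0.67 for the members and 0.23 for all tested genes. Because the members were chosen with earlier results of these data known, these medians are no measure of integrin genes in general.

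SiNTC replicate 3 set the width of the control group for most of these genes. On the log2 scale it lay 94.1% of the way from the mean of the other siNTC libraries to the siMnt mean for Itga5, 79.1% for Itga1, 74.2% for Itga2, 70.6% for Itgb1 and 68.3% for Itga6. For Itgb6 the value was -43.8%, with siNTC replicate 3 between the other controls and below their mean. Mnt itself was highest in that library, at 1596 against 1316 and 896 in siNTC replicates 1 and 2. Without siNTC replicate 3, limma with no block called Itga1, Itga6 and Itgb4 as higher and Itga2, Itga5 and Itgb1 as lower (16.0% of tested genes passed). Itgb6 then had an adjusted p of 0.0605. Without siNTC replicate 2 Itgb6 alone of the members passed, with an adjusted p of 0.0393, and 217 of the 12568 tested genes passed in that fit.

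**Figure D1:**
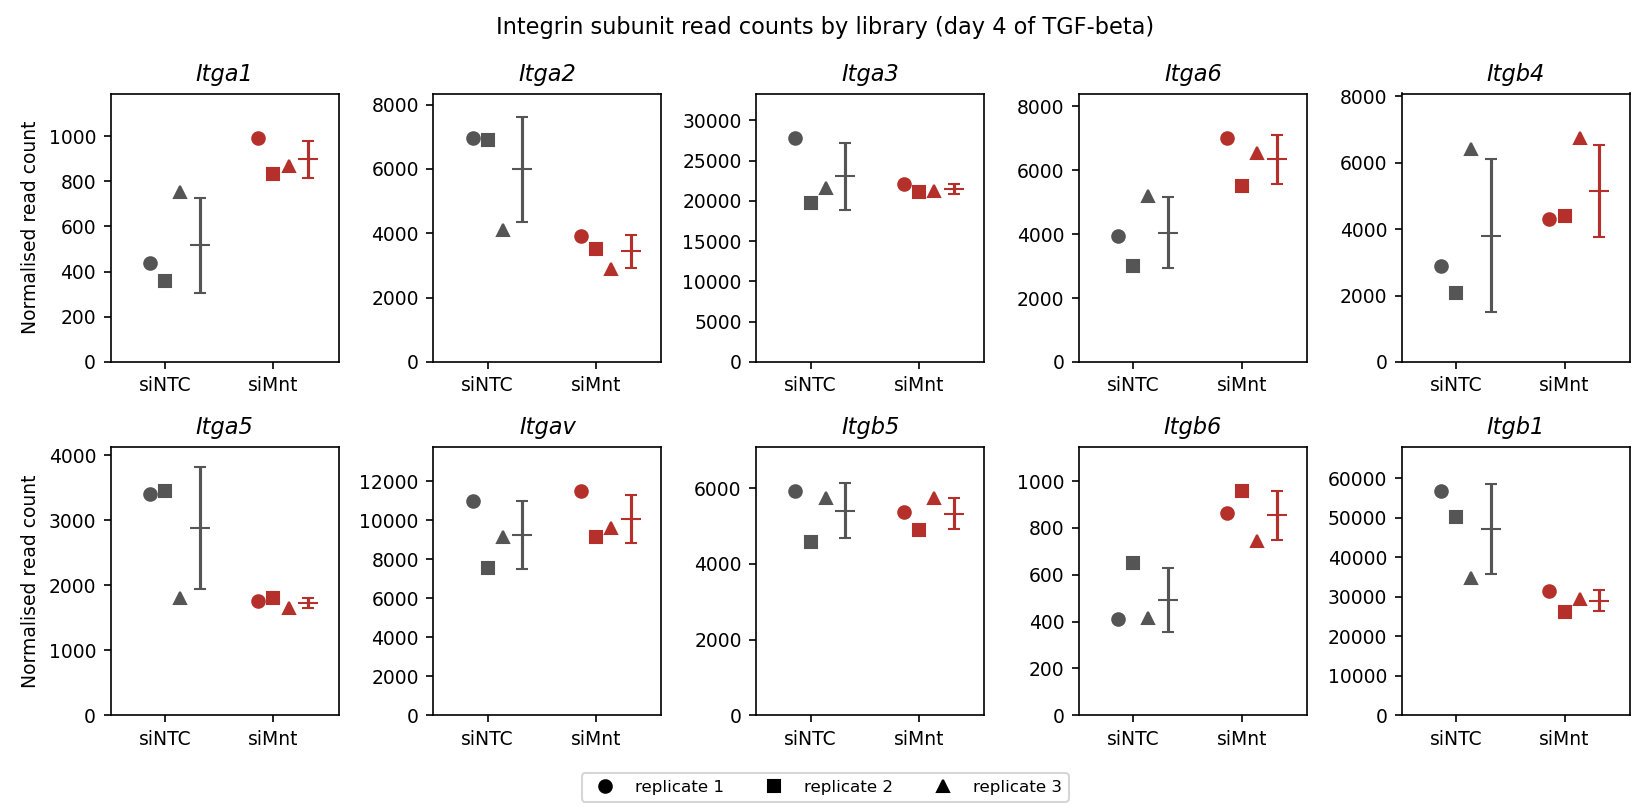
Normalised read count (vertical axes, from 0) of each of the 10 integrin subunits in the 3 siNTC and 3 siMnt libraries; symbols mark the replicate number, and the bar beside each group is the mean ± SD. The siNTC replicate 3 triangle lies beside the siMnt points for Itga5 (1800.4 against 1647 to 1795) and within them for Itgb4 (6422 against 4312 to 6741), and away from them for Itgb6 (416 against 745 to 956).

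RefSeq promoter windows on GRCm38.p6, from 250 bases before to 50 after an annotated start, were matched by symbol for 8 of the 10 members, in 10 windows. Itga6 and Itgb4 had no window in the table used. The E-box CACGTG, the sequence that Mnt and Myc recognise with Max, read like the other motifs on both strands, was in 0 of these 10 windows, and in 7.15% of all 32851 windows of that length. The E-box CACCTG of the Zeb and Snail repressors was in 3 windows of Itga3, Itgb5 and Itgb6, and in 20.2% of all windows. The AP-1 site TGANTCA was in 1 window, the second of Itga3, and in 7.81% of all. These matches describe the letters of these windows only. The 250 bases before the start of the members with lower values (Itga2, Itga5, Itgb1) and of 2 with higher values (Itga1, Itgb6) are shown 5′ to 3′ so that the groups can be compared, with CpG dinucleotides in capitals. They lie at chr13:114932101-114932350 (minus strand), chr15:103366792-103367041 (minus), chr8:128685404-128685653 (plus), chr13:115101965-115102214 (minus) and chr2:60722604-60722853 (minus, the first of the 2 Itgb6 windows).
Itga2: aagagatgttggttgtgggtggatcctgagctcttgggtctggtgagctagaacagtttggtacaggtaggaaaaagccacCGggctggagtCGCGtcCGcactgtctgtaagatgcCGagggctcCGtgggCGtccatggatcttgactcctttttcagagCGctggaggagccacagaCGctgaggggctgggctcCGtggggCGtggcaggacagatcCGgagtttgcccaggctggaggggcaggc
Itga5: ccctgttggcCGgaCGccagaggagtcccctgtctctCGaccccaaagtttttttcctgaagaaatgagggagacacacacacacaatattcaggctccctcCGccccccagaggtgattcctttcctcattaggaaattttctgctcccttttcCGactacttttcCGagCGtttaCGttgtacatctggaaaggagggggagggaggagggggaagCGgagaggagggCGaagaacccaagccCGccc
Itgb1: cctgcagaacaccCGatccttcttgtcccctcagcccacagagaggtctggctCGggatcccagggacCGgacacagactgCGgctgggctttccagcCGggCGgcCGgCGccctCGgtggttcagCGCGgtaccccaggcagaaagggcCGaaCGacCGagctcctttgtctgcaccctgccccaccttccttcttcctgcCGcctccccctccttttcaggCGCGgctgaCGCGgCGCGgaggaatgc
Itga1: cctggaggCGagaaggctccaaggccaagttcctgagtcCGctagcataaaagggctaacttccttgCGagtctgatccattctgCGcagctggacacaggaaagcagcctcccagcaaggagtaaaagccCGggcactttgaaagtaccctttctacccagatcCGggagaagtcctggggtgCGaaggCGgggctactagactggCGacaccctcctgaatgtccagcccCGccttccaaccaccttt
Itgb6: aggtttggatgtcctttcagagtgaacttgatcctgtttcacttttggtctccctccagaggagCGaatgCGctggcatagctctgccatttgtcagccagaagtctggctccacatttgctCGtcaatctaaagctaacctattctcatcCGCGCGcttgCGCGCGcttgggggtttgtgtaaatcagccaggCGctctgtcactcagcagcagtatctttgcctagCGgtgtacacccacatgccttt
They held 12, 11, 21, 10 and 11 CpG dinucleotides in that order, where the median over all windows was 6.0 (quartiles 2.0 and 16.0). Itgb1 was the richest in CpG of the 5, and the other 4 windows held 10 to 12.

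Among the collagen receptors the 2 alpha chains differed in opposite directions. Itga2, the alpha chain of the main epithelial collagen receptor, was at 6953, 6905 and 4097 in siNTC replicates 1, 2 and 3 and at 3922, 3506 and 2893 in siMnt. The groups did not overlap, although siNTC replicate 3 lay just above the highest siMnt library. The means were 5985 ± 1635 and 3440.2 ± 517, with a log2 fold change of -0.77 ± 0.22 (adjusted p = 0.0895, or 0.00716 with the block). Itga1, the alpha chain that favours basement membrane collagen, was at 436, 359 and 755 in siNTC and at 990.4, 833 and 869 in siMnt. Every siMnt library was again beyond every control. Its means were 516 ± 209.8 and 897 ± 82.6, with a log2 fold change of 0.87 ± 0.26 (adjusted p = 0.0954, or 0.0229 with the block). The gene Pelo lies within Itga1 in the RefSeq annotation, and its reads cannot be fully separated here from those of Itga1. Pelo was at 531 ± 30.7 and 506 ± 18.1 (adjusted p = 0.801).

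Both other collagen-binding alpha chains were low. Itga11, chosen for mention after its values were seen, was at 2.62, 3.32 and 5.81 in siNTC and 10.8, 22.7 and 17.2 in siMnt (adjusted p = 0.0718, or 0.0376 with the block). Itga10, also chosen so, was at 16.7 ± 10.6 and 31.1 ± 7.94 (adjusted p = 0.271). Of the 14 collagen chains tested, 3 fell, 0 rose and 11 did not pass (median log2 fold change -0.03). Those that fell were the basement membrane chains Col4a3 (from 345 ± 61.0 to 126 ± 39.2; adjusted p = 0.0313) and Col4a4 (from 522 ± 114 to 218 ± 47.1; adjusted p = 0.0313) and the fibril-associated Col12a1 (from 261 ± 63.4 to 65.4 ± 30.5; adjusted p = 0.0356). With the block 4 passed as higher and 5 as lower. Col6a2, a chain of the beaded microfibril collagen named after its values were seen, had the largest positive value among them, at 803 ± 696 and 2802 ± 673 (adjusted p = 0.0635, or 0.0038 with the block).

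Of the laminin receptor genes, Itga6 had separated groups, and Itga3 and Itgb4 had overlapping ones. Itga6 was at 3931, 2995 and 5202 in siNTC and 7002, 5492 and 6528 in siMnt, with no overlap. Its means were 4043 ± 1107 and 6341 ± 772, and its log2 fold change 0.68 ± 0.20 (adjusted p = 0.0966, or 0.0135 with the block). Itgb4, which pairs only with Itga6 and anchors hemidesmosomes to keratin, was at 2899, 2075 and 6422 in siNTC and 4312, 4404 and 6741 in siMnt. The groups overlapped because siNTC replicate 3 exceeded 2 of the 3 siMnt libraries. The log2 fold change was 0.58 ± 0.38 (adjusted p = 0.404, or 0.0544 with the block). Within replicate numbers 1, 2 and 3 the log2 differences were 0.57, 1.09 and 0.07. Without siNTC replicate 3 the log2 fold change of Itgb4 was 1.04 (adjusted p = 0.0216). Galk1 overlaps Itgb4 in the RefSeq annotation and was at 1763 ± 127 and 2109 ± 239.8 (adjusted p = 0.272).

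Itga3, the most abundant alpha chain and the main partner of Itgb1 on laminin, was at 27792, 19769 and 21583 in siNTC and at 22149, 21090.4 and 21219 in siMnt. The siMnt libraries lay inside the control range, and siNTC replicate 1 alone was high. The log2 fold change was -0.09 ± 0.16 (adjusted p = 0.788). Of 8 tested laminin chains 0 passed by limma (2 at an unadjusted p under 0.05; DESeq2 called 2 and edgeR 0), with a median of 0.25. The most expressed chains, Lama5 and Lamc1, were at 25335 ± 8348 and 28368 ± 3304 (adjusted p = 0.64) and at 10818 ± 2593 and 10144 ± 682 (adjusted p = 0.879). With the block Lamb2 passed as higher (0.0336) and Lamb3, a chain of the epithelial laminin, as lower (0.0254). Of 7 tested hemidesmosome partners, which share the chains of that laminin with the laminin list, 0 passed by limma (2 at an unadjusted p under 0.05; DESeq2 called 2 and edgeR 0), with a median of 0.23. The plakins Dst and Plec, which link Itgb4 to keratin, were at 25468 ± 8719 and 23256 ± 4323 and at 16375 ± 8007 and 17970.0 ± 5449 (adjusted p = 0.899 and 0.771).

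Itga5, the alpha chain of the classical fibronectin receptor, was at 3395, 3439 and 1800.4 in siNTC and 1749, 1795 and 1647 in siMnt. The groups were separated by a few counts only, between siNTC replicate 3 and siMnt replicate 2. Its means were 2878 ± 934 and 1730.3 ± 75.7, and its log2 fold change was -0.67 ± 0.24 (adjusted p = 0.145, or 0.0288 with the block). Within replicate numbers 1, 2 and 3 the log2 differences were -0.96, -0.94 and -0.13, so the difference was large within replicate numbers 1 and 2 and small within 3.

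Among Itgav and its partners Itgb5 and Itgb6, Itgb6 was separated between the groups and the other two genes were not. Itgb6, an epithelial beta chain, was at 411, 650.2 and 416 in siNTC and 862, 956 and 745 in siMnt. Its means were 493 ± 137 and 854 ± 106, with a log2 fold change of 0.82 ± 0.20 (adjusted p = 0.0657, or 0.00857 with the block). This was the smallest adjusted p among the 10 members with no block, and here siNTC replicate 2, not 3, was the control nearest to siMnt. Itgav was at 11002, 7561 and 9154 in siNTC and 11468, 9110.4 and 9574 in siMnt. The siNTC values of replicates 1 and 3 lay within the siMnt range, and the log2 fold change was 0.13 ± 0.17 (adjusted p = 0.681). Itgb5 was at 5918, 4570.2 and 5749 in siNTC and 5377, 4895 and 5734 in siMnt, with a log2 fold change of -0.01 ± 0.14 (adjusted p = 0.964). All siMnt values of Itgb5 lay within the siNTC range. Itgb3, a further partner of Itgav named after its values were seen, was at 3594 ± 919 and 4202 ± 644 (adjusted p = 0.486).

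Among 9 tested RGD-type and related ligands, 2 fell, 0 rose and 7 did not pass (median log2 fold change -0.36). Tenascin C, Tnc, fell from 24933 ± 5645 to 8296 ± 1746 (adjusted p = 0.0163) and fibrillin 1, Fbn1, fell from 204 ± 45.3 to 87.8 ± 6.47 (adjusted p = 0.0313). With the block 4 passed as lower and 1 as higher. Among these was fibronectin, Fn1, the ligand of Itga5 with Itgb1, named after its values were seen. Fn1 stood at 269132, 167310.0 and 145991 in siNTC and 94444, 67382 and 105256 in siMnt (log2 fold change -1.10 ± 0.29; adjusted p = 0.0734, or 0.0208 with the block). The gene with a higher value was nephronectin, Npnt, also named after its values were seen (from 5053 ± 1361 to 9172 ± 1324; adjusted p = 0.061, or 0.0077 with the block). In the latent TGF-beta complex, on which Itgav with Itgb6 acts, 1 of 10 tested genes fell, 0 rose and 9 did not pass (median -0.34). That gene was the latent TGF-beta-binding protein Ltbp4 (from 585 ± 123 to 211 ± 105; adjusted p = 0.0439). edgeR called 0 genes of this list (Ltbp4 at an adjusted p of 0.0534), as did limma on genes with a mean of at least 50, and with the block 4 passed as lower and 1 as higher.

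Itgb1, the shared partner of Itga1, Itga2, Itga3, Itga5, Itga6 and Itgav, was at 56674, 50274 and 34634 in siNTC and 31397, 26252 and 29389 in siMnt. All siMnt libraries lay below all controls, and siNTC replicate 3 lay nearer to siMnt than to its own group. The means were 47194 ± 11338 and 29013 ± 2593, so that siMnt held 61.5% of the control level. The log2 fold change was -0.68 ± 0.20 (adjusted p = 0.1001, or 0.0329 with the block), with differences of -0.85, -0.94 and -0.24 within replicate numbers 1, 2 and 3.

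**Figure D2:**
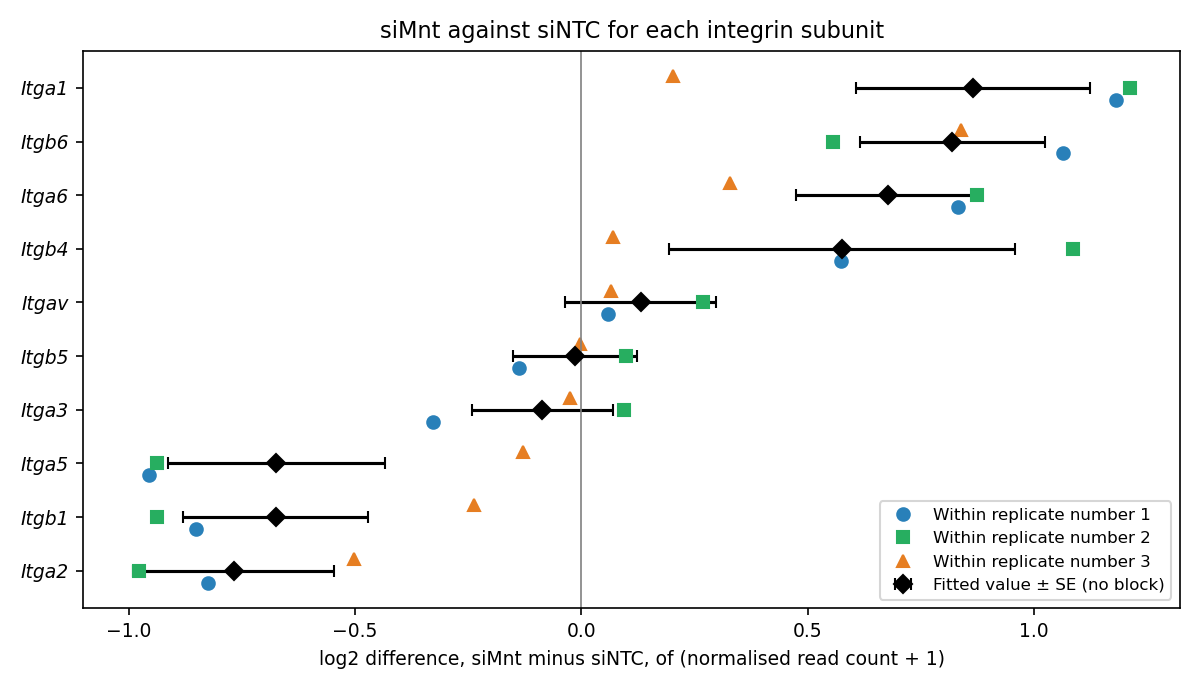
Log2 difference between siMnt and siNTC for each subunit (horizontal axis), ordered by the fitted value: diamonds with bars are the fitted log2 fold change ± SE without a block, and coloured symbols the differences within replicate numbers 1, 2 and 3. For Itga5, Itgb1, Itga1, Itga6 and Itga2 the difference within number 3 has the same sign as within the other numbers and a smaller size. In Itga5 it is -0.13 against -0.96 and -0.94. For Itgb6 the difference within number 3 lies between the others (0.84 against 1.06 and 0.56).

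To compare genes with each other, counts were divided by the length of the longest transcript of each gene in kilobases. On this per-length level Itgb1 stood first in siNTC at 12371 ± 2972, followed by Itga3 at 4741 ± 866. Then came Itgb5 (1649 ± 224), Itgav (1310 ± 244), Itga6 (938 ± 257), Itga2 (842 ± 230.1), Itga5 (652 ± 211) and Itgb4 (612 ± 372). Within this middle group each gene overlapped its neighbour in the order over the 3 siNTC libraries, so their order there is not resolved. Itgb6 (102 ± 28.4) and Itga1 (47.1 ± 19.1) were lowest and lay apart from the rest and from each other. In siMnt the per-length level of Itgb1 was 7605 ± 680, still first, and Itga6 (1471 ± 179) overlapped Itgb5 (1626 ± 128) and Itgav (1425 ± 177). Itgb4 (829.96 ± 222) then stood above Itga2 (484 ± 72.8) and Itga5 (392 ± 17.1), without overlap between these 3.

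Because alpha and beta chains function in pairs, the share of each subunit within its class was also taken, per length and library, over the 14 alpha and 7 beta genes of the table. The members made up 99.4% to 99.8% of the alpha level. Of the beta level they made up 94.9%, 95.9% and 95.1% in siNTC replicates 1, 2 and 3 and 91.3%, 91.7% and 93.3% in siMnt. Itgb1 held 79.4% ± 6.32 of the beta level in siNTC and 68.4% ± 1.43 in siMnt. Its share was 82.0%, 84.1% and 72.2% in siNTC and 70.0%, 68.0% and 67.2% in siMnt, so that the groups did not overlap. Over the 4 beta members alone they did overlap, with a difference of -9.03 points (exact two-sided permutation p = 0.2). Shares within a class sum to a whole, and the other beta members had larger mean shares in siMnt. Itgb5 went from 10.9% ± 2.66 to 14.6% ± 0.66, Itgb4 from 4.31% ± 3.40 to 7.46% ± 1.83 and Itgb6 from 0.67% ± 0.20 to 1.61% ± 0.32. The beta genes that are not members together also held a larger share in siMnt.

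Within the alpha class Itga3 was the largest in all libraries, at 55.2% ± 1.98 in siNTC and 53.2% ± 1.76 in siMnt. Itga6 held 9.12%, 9.10% and 15.0% in siNTC and 18.3%, 16.1% and 18.6% in siMnt. Itga2 held 9.78%, 12.7% and 7.18% in siNTC and 6.21%, 6.22% and 5.0% in siMnt, and Itga5 7.66% ± 2.56 and 4.72% ± 0.36. Itga6 thus stood below Itga2 in siNTC replicates 1 and 2 and above it in siNTC replicate 3 and in every siMnt library. Of the 10 shares 6 reached an exact two-sided permutation p of 0.1, the smallest that 3 against 3 libraries can give, so none could pass 0.05. These were Itga1, Itga2, Itga6, Itgav, Itgb1 and Itgb6. The ratio of the summed alpha to the summed beta level ran from 0.487 to 0.639 in siNTC and from 0.710 to 0.783 in siMnt. The groups did not overlap, and this ratio, taken after the data were seen, was not tested. The summed beta level ran from 12571 to 18127 in siNTC and from 10126 to 11760.1 in siMnt, whereas the summed alpha level overlapped (7639 to 9997 and 7926 to 8884).

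**Figure D3:**
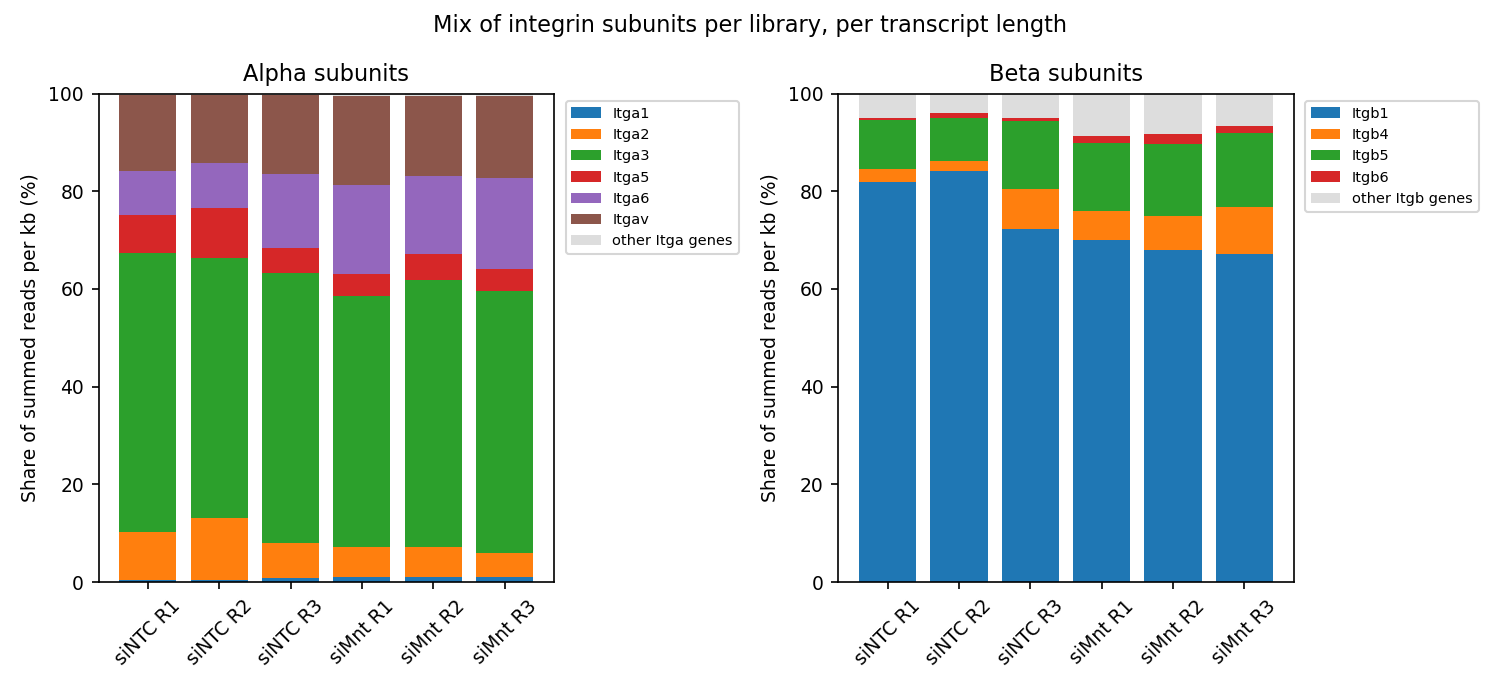
Share (%) of each alpha subunit (left) and beta subunit (right) in the summed normalised read count per kilobase of its class, as stacked bars for the 6 libraries; grey marks the integrin genes that are not members. Itgb1 holds 82.0%, 84.1% and 72.2% in siNTC and between 67.2% and 70.0% in siMnt, and Itga6 takes a larger part of the alpha class in siMnt (16.1% to 18.6%) than in siNTC (9.10% to 15.0%).

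Lists of partner genes are counted by limma without the block. Without siNTC replicate 3 the count of focal adhesion genes became 3 higher and 9 lower, and no gene of any kind passed without siNTC replicate 1, siMnt 1 or siMnt 2. In lists with 1 call, those of Itgam, Acap1 and Esam were also lost without siNTC replicate 2 or siMnt replicate 3, that of Bsg without siMnt replicate 3 and that of Ltbp4 without siNTC replicate 2. Of the other integrin subunits 11 were in the table and 9 were tested, of which 1 rose, 0 fell and 8 did not pass, with a median of 1.02. Itgam, the alpha chain of the myeloid complement receptor, rose from 5.24, 4.43 and 8.40 in siNTC to 28.1, 17.9 and 25.7 in siMnt (log2 fold change 1.84 ± 0.41, adjusted p = 0.0493). With a pseudocount of 0.5 this call was lost and 0 genes of the list passed. With the block 4 passed as higher, Itga7, Itga11, Itgam and Itgb7. Apart from Itgb3, Itgb7 and Itgb2, whose siNTC means were 3594, 189 and 95.8, these genes were low. Itgam belongs to a list of 13 leukocyte markers, of which 8 were in the table and 5 were tested. In that list 3 rose, Itgam, Cd52 (from 6.60 ± 4.6 to 36.0 ± 8.59) and the receptor Csf1r (from 945 ± 226 to 1975 ± 110.0), and 0 fell. Its summed level was 1062 to 1397 in siNTC and 2148 to 2379 in siMnt, most of it Csf1r. The defining marker Ptprc was at 1.29 to 6.65 over the 6 libraries and Itgal at 5.24 to 11.9. The other markers with clear counts did not pass: Laptm5 was lower in siMnt on average (148 ± 29.4 and 112 ± 31.2; adjusted p = 0.362) and Itgb2 was at 95.8 ± 43.6 and 109.5 ± 39.9 (adjusted p = 0.792). The part of such cells in the value of Itgam was not tested.

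Inside the cell, 0 of 17 tested activators and inhibitors of integrins passed by limma (3 at an unadjusted p under 0.05; DESeq2 called 2 and edgeR 0), with a median of -0.07. Talin, Tln1, which switches integrins on by binding the beta tail, was at 11279.9 ± 1987 and 9770.0 ± 381 (adjusted p = 0.475). The small GTPase Rap1b was at 86342 ± 10299 and 78930 ± 4740 (adjusted p = 0.716). Blocked on replicate number, 2 passed as higher, Kank1 and Kank2, and 1 as lower, Krit1.

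Of 39 tested focal adhesion adaptors and kinases 2 rose, 2 fell and 35 did not pass, with a median of -0.08. Sorbs2, an adaptor that links adhesions to actin, fell to 8657 ± 1525 from 17081 ± 1446 in siNTC (-0.99 ± 0.16, adjusted p = 0.0242). Sorbs3, named after its values were seen, rose at a low level (from 44.8 ± 8.09 to 109 ± 10.1; adjusted p = 0.0334). Palladin, Palld, an actin-bundling scaffold, fell from 5783 ± 1309 to 2941 ± 135 (adjusted p = 0.0303). With the block 3 passed as higher and 7 as lower, the latter with zyxin (Zyx) and alpha-actinin (Actn1). The kinases Ptk2, Src and Ilk did not pass in either fit.

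Of 14 tested membrane partners of integrins 1 rose, 0 fell and 13 did not pass, with a median of 0.10. Basigin, Bsg, an immunoglobulin-family glycoprotein, rose to 20703 ± 659 from 10707 ± 908 in siNTC (0.95 ± 0.12 on the log2 scale, adjusted p = 0.0162). With the block 4 passed as higher and 1, the urokinase receptor Plaur, as lower. Of 17 tested genes of integrin traffic 1 rose, 0 fell and 16 did not pass, with a median of 0.04. It was Acap1, an adaptor for the recycling of Itgb1 (from 104 ± 9.51 to 211 ± 23.9; adjusted p = 0.0321), and with the block 1 passed as higher and 1 as lower.

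**Figure D4:**
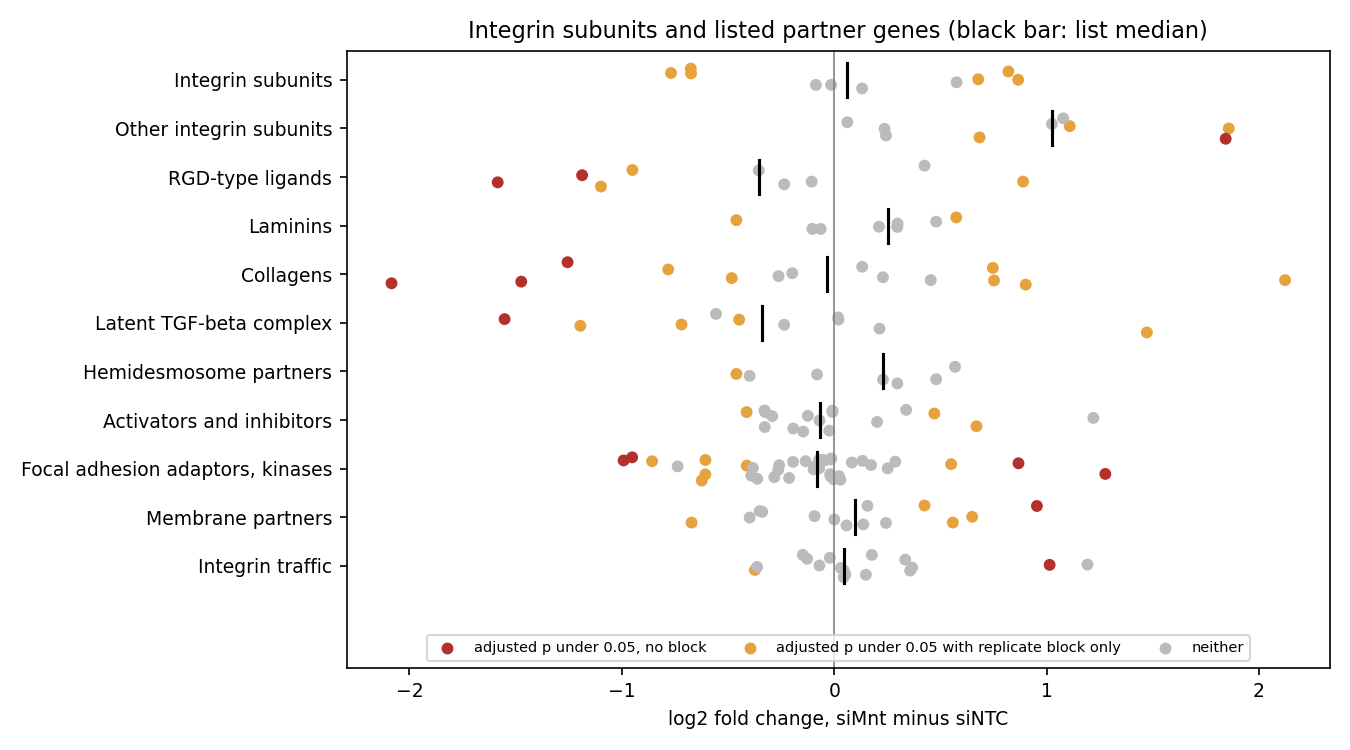
Log2 fold change of each tested gene (points) in the integrin subunits and 10 lists of partner genes (rows), with the list median as a black bar; red points passed without a block, orange points with the replicate number as a block only, grey points in neither fit. The 10 integrin subunits hold no red point and 6 orange points, 3 on each side of 0.

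Of 5 tested myoepithelial markers 1 fell, calponin (Cnn1, adjusted p = 0.0155), and 0 rose. The basal keratin Krt5 passed in neither fit but was higher in siMnt without overlap, at 24.5 to 36.8 in siNTC and 43.0 to 45.3 in siMnt. The basal factor Trp63 was at 0 to 3.58 over all libraries. With the block the basal keratin Krt17, at 2.58 to 39.9 in siNTC and 0 to 1.19 in siMnt, also passed as lower (0.0169). Of 3 tested endothelial markers 1 rose, Esam (from 9.73 ± 3.33 to 37.6 ± 5.79), and 0 fell, with Pecam1 at 1.08 to 9.55. Cdh5, the cadherin of endothelial cells, was at 63.3 to 96.1 in siNTC and 32.2 to 47.8 in siMnt, and it passed as lower with the block (adjusted p = 0.0836, or 0.0435 with the block). Of 4 tested fibroblast markers 0 passed by limma (1 at an unadjusted p under 0.05; DESeq2 called 1 and edgeR 0), and the most expressed were Pdgfrb and Col1a1. With the block Pdgfrb passed as higher (125 ± 19.3 and 235 ± 72.3; adjusted p = 0.0854, or 0.0147 with the block). Of 8 tested epithelial genes 0 passed by limma (2 at an unadjusted p under 0.05; DESeq2 called 1 and edgeR 0), and with the block E-cadherin, Cdh1, passed as higher and claudin 4, Cldn4, as lower. The median log2 fold change of the tested epithelial genes was -0.27. The summed level of the endothelial list was 91.7 to 126 in siNTC and 98.4 to 118 in siMnt. That of the fibroblast list was 317 to 409.6 and 410.5 to 565. The part of such markers in the integrin values was not tested.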

How the data were processed

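Per the submitters' processing notes, reads were handled with TopHat2 2.1.0 and DESeq2 on mouse build mm9. Read counter, annotation and strand: not given in the sources used here. The deposited table holds a signal: read counts divided by the authors by a size factor per library. Dividing by the value of 1 read gave whole reads within 0.05 read for 99.75% of values above 0. Groups and replicate numbers come from the titles, which leave unsaid whether each replicate was its own culture. P-values thus reflect the spread among these libraries, which may be technical.

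The 12568 genes with a mean of at least 10 over the 6 libraries (1958 lay below it) entered limma 3.58.1 (R 4.3.3) as log2(value + 1), the pseudocount being 1 (empirical Bayes with a trend, no block, Benjamini-Hochberg over all tested genes, threshold 0.05). Fold changes on this scale understate changes of genes near 0. Same-numbered libraries deviated together from their group means across genes (correlations 0.28, 0.50 and 0.35; other pairs -0.38 to 0.03), so results blocked on that number are given where they change a call. Deviations cancel within a group by construction, so negative values in the other pairs are partly built in. The labels do not say what equal numbers share, and the block thus rests on these same data. edgeR 4.0.16 (quasi-likelihood, TMM) and DESeq2 1.42.0 were run on recovered reads. Transcript length and GC content came from the longest transcript per symbol in GENCODE M21, which matched 98.8% of tested genes and is another build. The scripts were tested on simulated data.

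Members and lists were chosen with earlier results of these data known. Named genes are the members, Mnt, and from each list the 3 passing genes with the smallest adjusted p or, where none passed, the 2 most expressed. Genes of likest pattern were to be named for members that passed; 0 did. List genes absent from the table, Epcam and Cyr61 among them, were not analysed here, and some listed genes that were tested are counted but not reported here by name. Alternatives were other pseudocounts, filters, scalings, variance models and thresholds, the block, count tests, the GC and length correction and leaving out each library.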

Additional observations from a re-analysis of the deposited data

How the results depend on the processing

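With the replicate block 1998 genes and 3 higher and 3 lower members passed; DESeq2 called 1457 genes with 3 and 3 members, and the GC and length correction with the replicate block 2336 genes with 3 and 3. At a threshold of 0.1 the counts were 1336 genes, 3 higher members and 1 lower. Genes called were 322 with a mean of at least 50, 306 without a trend and 963 with the GC and length correction alone, each with 0 members. Leaving out single libraries gave 0 to 2012 genes, 0 to 3 higher members and 0 to 3 lower; the 0 came from leaving out replicate 1 of siNTC, 1 of siMnt or 2 of siMnt, and no member passed without siMnt replicate 3. Over all 20 alternatives the 6 members with separated groups and Itgb4 kept their sign. Near 0, Itgb5 changed sign with scaling to library totals (0.0074) and when libraries were left out (-0.13 to 0.0547). Itga3 (-0.19 to 0.0565) and Itgav (-0.0051 to 0.27) changed sign when libraries were left out. All 80 alternatives of the subunit shares kept their direction, but the Itgb1 share taken over the members only differed by -9.03 points with an exact p of 0.2, so that the groups overlapped. The number of libraries, not the read depth of these abundant genes, sets the smallest exact p of 0.1.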

Other observations

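Itga1 and Itga2 are neighbouring protein-coding genes in the RefSeq gene order of GRCm38.p6, on the same strand of chromosome 13. Their values differed in opposite directions: siMnt held 174% of the siNTC level of Itga1 and 57.5% of that of Itga2. Pelo, which lies within Itga1, was at 95.4%. The log2 differences within replicate numbers 1, 2 and 3 were 1.18, 1.21 and 0.20 for Itga1 and -0.83, -0.98 and -0.50 for Itga2. These values describe 3 libraries per group. By limma without the block on all 6 libraries neither gene passed at an adjusted p under 0.05. DESeq2 on recovered reads, also without a block, called both (adjusted p = 0.0377 for Itga1 and 0.0117 for Itga2), and edgeR called neither.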
